A study of Rattus norvegicus with 5 samples.

Results

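Clones 1-1.16 and 1-1.2 are a pair of clones of INS-1, an insulin-secreting tumour line of rat beta cells. They were compared on the log2 scale as 1-1.16 minus 1-1.2, with 1 expression array per clone, so a positive difference means a higher signal in 1-1.16. These are 2 of the 5 arrays in the series. The other 3 arrays, of the parental line and of clones 5-3.14 and 5-3.19, served as background. All 4 clones carry an FRT site, at which the Flp recombinase can insert a gene, and the tetracycline repressor, which would hold such a gene off until tetracycline is given. The labels name no inserted gene and no treatment for these samples, and the parental line is INS-1 before these elements were added. Each clone is a single line grown from INS-1, and the labels do not say whether the clones of a set share an origin or what the parts of a clone name stand for. Every difference below therefore lacks a replicate check, and no p-value can be given.

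Beta cells store insulin in dense granules together with chromogranins and islet amyloid polypeptide, and INS-1 cells keep much of this programme. Like other cells, they make cholesterol from acetyl-CoA through a chain of enzymes whose genes are driven together by the SREBP transcription factors, which INSIG proteins hold back when sterols are plentiful. Shortage of amino acids or stress in the endoplasmic reticulum raises translation of ATF4, a transcription factor whose targets include Trib3, Ddit3 and Atf3.

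Signals are linear, on an arbitrary scale with the same trimmed mean on every array. The 2 arrays of set 1-1 matched in their added controls: the median ratio of 1-1.16 to 1-1.2 was 0.972 over 27 poly(A) control probe sets (range 0.834 to 1.21) and 0.939 over 18 hybridisation controls (0.716 to 1.28). For beta-actin, the 3′ over the 5′ probe set, a sign of RNA integrity, was 1.73 in 1-1.16, the highest of the 5 arrays, and 1.49 in 1-1.2, the lowest; that of Gapdh was 0.985 and 0.981. Its part in the differences below was not tested.

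The largest differences between the clones included hormone genes, genes of sterol and fatty acid synthesis and some stress-induced genes, in profiles that were otherwise close. Of 9520 probe sets bright enough to be compared, 147 (1.54%) were at least 2-fold higher in 1-1.16 and 107 (1.12%) at least 2-fold lower, on the scale log2(signal + 21.8). Counted by gene, with the brightest probe set of each, 103 of 6944 genes were higher (1.48%) and 81 lower (1.17%). The SD of the log2 difference was 0.42, and 87.7% of probe sets lay within 1.5-fold. No other pair among the 5 arrays was as close: the total of 254 probe sets compares with 480 to 1003 for the other 9 pairs.

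The split between higher and lower depended on the scaling. With median centring 109 probe sets were higher and 148 lower, with quantile normalization 122 and 136, and with cyclic loess 111 and 136, so that the higher share of the calls went from 57.9% to 42.4%, 47.3% and 44.9%. The median difference of all tested genes went from 0.05 to -0.05 with median centring, so list medians near 0 depend on the scaling. The calls were not spread evenly over brightness. When the probe sets were cut into 5 equal bins by brightness, the dimmest bin, with signals of 194 to 401, held 99 of the 254, and the brightest held 35, of which 26 were lower in 1-1.16. In 44 genes with a probe set past 2-fold and at least 1 further tested probe set, 51 of 54 further probe sets had the same sign and 10 of these were also past 2-fold.

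**Figure D1:**
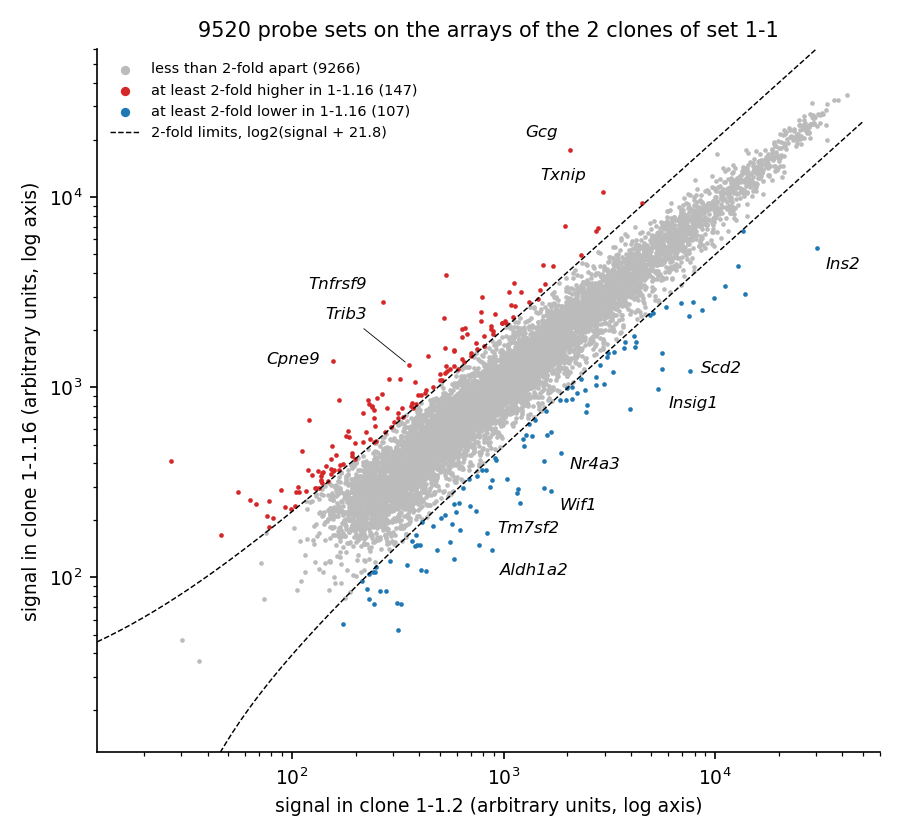
Signals of 9520 probe sets in clone 1-1.2 (x axis) and clone 1-1.16 (y axis), both in arbitrary units on log axes; red points are the 147 probe sets at least 2-fold higher in 1-1.16, blue points the 107 at least 2-fold lower, and dashed lines the 2-fold limits with the offset of 21.8. Tnfrsf9, Gcg and Cpne9 lie far above the band, and Ins2, Scd2 and Insig1 far below it.

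Among the hormone genes, clone 1-1.16 had less Ins2 and more glucagon precursor RNA than 1-1.2. Ins2, which with Ins1 encodes rat insulin, read 30224 in 1-1.2 and 5381 in 1-1.16, against 28816 in the parental line, 3953 in 5-3.14 and 4303 in 5-3.19. The parental line and 1-1.2 were thus high and 1-1.16 and both 5-3 clones low, with a log2 difference of -2.48 (5.6-fold) between the clones of set 1-1. Gcg, which encodes the precursor of glucagon and GLP-1, read 2064 in 1-1.2 and 17772 in 1-1.16, against 6874 in the parental line, 20549.5 in 5-3.14 and 24434 in 5-3.19. Here 1-1.2 was the lowest of the 5 arrays and 1-1.16 lay with the 5-3 clones, for a log2 difference of 3.09 (8.53-fold).

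Ins1, the other insulin gene, differed much less. Its signals were 42217 in 1-1.2 and 34381 in 1-1.16, against 37359.9 in the parental line, 37972 in 5-3.14 and 37189.5 in 5-3.19, a log2 difference of -0.30; these are among the brightest values on the arrays. Iapp, islet amyloid polypeptide, read 33945 in 1-1.2 and 19870.5 in 1-1.16, against 27899 in the parental line, 28102 in 5-3.14 and 19159.8 in 5-3.19, and 1-1.2 was the highest array (-0.77). Npy, neuropeptide Y, showed the same grouping as Ins2, with 4179 in 1-1.2 and 1621 in 1-1.16, against 5552 in the parental line, 1664 in 5-3.14 and 1426 in 5-3.19 (-1.35).

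Gad1 and Gad2 encode the enzymes that make GABA, which beta cells hold in small vesicles. Gad2 read 569 in 1-1.2 and 192 in 1-1.16, against 301 in the parental line, 117 in 5-3.14 and 186 in 5-3.19, the highest in 1-1.2, and Gad1 read 504 in 1-1.2 and 206 in 1-1.16, against 664 in the parental line, 227 in 5-3.14 and 288 in 5-3.19. Both were more than 2-fold lower in 1-1.16, by 2.77-fold and 2.31-fold. Of the transcription factors of the beta cell list named here, Neurod1, Pdx1, Isl1 and Pax6 were lower in 1-1.16, and Nkx6-1 and Foxa2 higher. Neurod1 differed most of these, with 6927 in 1-1.2 and 2790 in 1-1.16 (-1.31, 2.47-fold), and 1-1.16 was the lowest array. Pdx1 read 2343 in 1-1.2 and 1454 in 1-1.16 and Isl1 1987 in 1-1.2 and 1148 in 1-1.16, with log2 differences of -0.68 and -0.78, and Pax6 gave -0.77; in these genes 1-1.16 was the lowest of the 5 arrays. Nkx6-1 was higher, with 1053 in 1-1.2 and 1599 in 1-1.16, against 2220 in the parental line, 1031 in 5-3.14 and 2158 in 5-3.19 (0.59), and Foxa2 differed by 0.13; Nkx6-1, Foxa2 and Pax6 were added after their values were seen. Slc2a2, the glucose transporter GLUT2, read 5338 in 1-1.2 and 6485 in 1-1.16 (0.28), inside the range of the other 3 arrays.

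Over the list of beta cell identity genes, 12 of 15 tested members lay below 0, with a median of -0.77. Over all 6944 genes the median was 0.05, with 55.2% of genes above 0 and 44.8% below. At least 2-fold lower were 5 of the 15 (Ins2, Gad2, Npy, Neurod1 and Gad1), beside 1.17% of all tested genes. Ins1, Iapp, Pdx1 and Isl1 were lower by less than 2-fold, and Nkx6-1 and Slc2a2 were higher. For 7 of the 15 genes 1-1.16 was the lowest of the 5 arrays, and for 5 of them 1-1.2 was the highest; over all tested genes these shares were 17.3% and 16.6%. The genes of the secretory granule and of prohormone processing were lower to a smaller extent, with 10 of 15 below 0, a median of -0.24 (-0.08 with cyclic loess and -0.10 with quantile normalization) and none past 2-fold. Chromogranin A (Chga) read 24011 in 1-1.2 and 18589 in 1-1.16, secretogranin II (Scg2) 2984 in 1-1.2 and 1728 in 1-1.16 and the prohormone convertase gene Pcsk2 3331 in 1-1.2 and 1974 in 1-1.16. In the last pair the parental line was well above both clones, at 7892 and 9129.9.

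The other tested hormone genes gave patterns unlike that of Gcg. Cck, cholecystokinin, read 6120.0 in 1-1.2 and 3178 in 1-1.16, against 5689 in the parental line, 6537 in 5-3.14 and 10280.0 in 5-3.19, so that 1-1.16 was the lowest array (-0.94). Gast, gastrin, read 2540.1 in 1-1.2 and 3474 in 1-1.16 in the clones of set 1-1 (0.45) and 1362 in the parental line, but 12.9 in 5-3.14 and 18.0 in 5-3.19. Sct, secretin, was level between the pair, at 807 in 1-1.2 and 753 in 1-1.16.

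**Figure D2:**
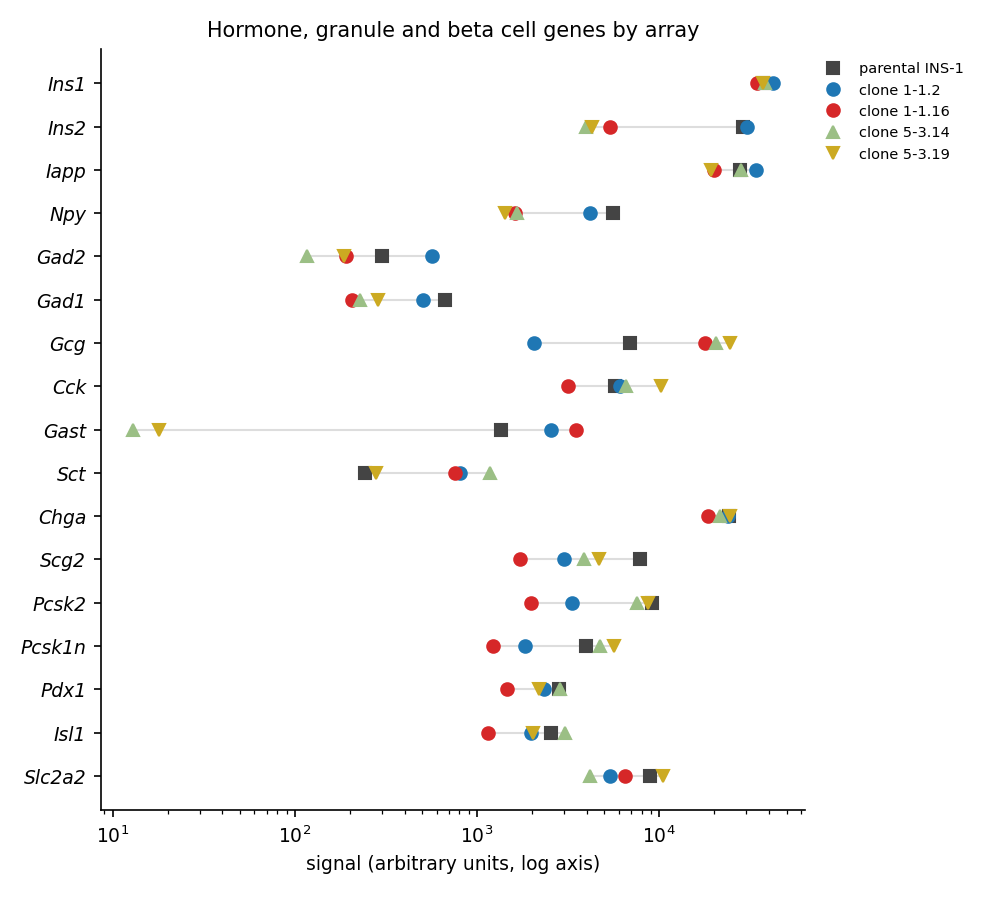
Signals of 17 hormone, granule and beta cell genes on each of the 5 arrays, in arbitrary units on a log axis; each symbol is 1 array and the grey line joins the lowest to the highest. In Ins2, Npy and Gad2 the red points of 1-1.16 lie with the 5-3 clones and the blue points of 1-1.2 near or above the parental line, and in Gcg 1-1.2 is the lowest.

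The genes of cholesterol synthesis were lower in 1-1.16 as a group. All 17 tested genes of the list lay below 0 and 11 were at least 2-fold lower, beside 44.8% and 1.17% of all tested genes. The median log2 difference of the list was -1.23. In 14 of the 17, 1-1.16 was the lowest of the 5 arrays, as it was in 17.3% of all tested genes. Against the parental line the median of the list was -0.93 in 1-1.2, -2.04 in 1-1.16, -0.56 in 5-3.14 and -0.79 in 5-3.19, so the median was below 0 in every clone and lowest in 1-1.16.

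Along the pathway, the early enzyme mevalonate kinase (Mvk) differed little, with 690.4 in 1-1.2 and 549 in 1-1.16 (-0.32), and phosphomevalonate kinase (Pmvk) was level at 1020.5 in 1-1.2 and 1019 in 1-1.16. Mvd, which makes isopentenyl pyrophosphate, read 278 in 1-1.2 and 85.2 in 1-1.16, against 728 in the parental line, 866 in 5-3.14 and 618 in 5-3.19 (-1.49). Idi1, the isomerase of the next step, had 3308 in 1-1.2 and 1208 in 1-1.16 (-1.44) on its brighter probe set and -1.87 on the other.

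Farnesyl diphosphate synthase, Fdps, was among the brightest genes of the list with 12787 in 1-1.2 and 4361 in 1-1.16, against 16052 in the parental line, 15819 in 5-3.14 and 10367 in 5-3.19, a log2 difference of -1.55 (2.92-fold). Squalene is then turned into lanosterol by Sqle and Lss. The brighter Lss probe set read 3073 in 1-1.2 and 1446 in 1-1.16, against 5911 in the parental line, 5726 in 5-3.14 and 3960.5 in 5-3.19 (-1.08), and the dimmer one, at 317 in 1-1.2 and 52.6 in 1-1.16, gave -2.19. Of the later enzymes, Tm7sf2, a sterol reductase, read 838 in 1-1.2 and 170.2 in 1-1.16, against 1889 in the parental line, 933 in 5-3.14 and 465 in 5-3.19, a log2 difference of -2.16 (4.48-fold), the largest of the list when each gene is read by its brightest probe set. Msmo1, a sterol methyl oxidase, read 11116 in 1-1.2 and 3402 in 1-1.16, against 14852 in the parental line, 10546 in 5-3.14 and 7791 in 5-3.19 (-1.70), and Dhcr7, which makes the last step to cholesterol, 2744 in 1-1.2 and 1032 in 1-1.16 (-1.39).

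Several genes that control the pathway were lower as well. Insig1, whose protein keeps SREBP in the endoplasmic reticulum and whose gene is itself an SREBP target, read 5368 in 1-1.2 and 981 in 1-1.16, against 10220.0 in the parental line, 6173 in 5-3.14 and 3803 in 5-3.19, a log2 difference of -2.43 (5.37-fold). It was the lowest of the 5 arrays in 1-1.16 by a wide gap, and the other clones lay between 1-1.16 and the parental line. Srebf2, the SREBP gene of the cholesterol branch, read 2027 in 1-1.2 and 1045 in 1-1.16 (-0.94), and Srebf1 1469 in 1-1.2 and 889.8 in 1-1.16 (-0.71), with a second probe set at -0.49. Abcg1, a sterol exporter driven by liver X receptors, was lower on its brightest probe set (-0.72) and near level on its other probe sets (-0.03 and 0.27). In the list of sterol uptake and control 7 of 10 genes lay below 0 (70%, beside 44.8% of all tested genes), 1 of them past 2-fold. The median was -0.42, and -0.71 with the filter at the 60th percentile and where both clones read at least 500.

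Promoters of 3 of the genes with the largest differences are shown because the genes were low together; sequences are from RefSeq on GRCr8, from 250 bases before to 50 after the gene start. Capitals mark CCAAT or its reverse complement ATTGG, the box bound by NF-Y, a factor that acts beside SREBP at many sterol genes.
Insig1 (chr4:8057720-8058019, minus strand): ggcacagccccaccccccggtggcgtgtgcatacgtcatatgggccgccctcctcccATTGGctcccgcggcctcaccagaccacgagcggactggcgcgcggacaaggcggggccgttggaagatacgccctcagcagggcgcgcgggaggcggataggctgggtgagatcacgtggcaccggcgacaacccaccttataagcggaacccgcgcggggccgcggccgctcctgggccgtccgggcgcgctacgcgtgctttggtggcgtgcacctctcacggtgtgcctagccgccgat
Tm7sf2 (chr1:212789492-212789791, minus strand): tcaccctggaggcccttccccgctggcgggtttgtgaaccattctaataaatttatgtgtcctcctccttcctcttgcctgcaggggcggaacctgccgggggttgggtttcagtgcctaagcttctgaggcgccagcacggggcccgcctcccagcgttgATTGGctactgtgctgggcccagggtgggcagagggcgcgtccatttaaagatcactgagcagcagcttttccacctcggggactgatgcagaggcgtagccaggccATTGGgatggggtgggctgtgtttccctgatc
Msmo1 (chr16:29746863-29747162, plus strand): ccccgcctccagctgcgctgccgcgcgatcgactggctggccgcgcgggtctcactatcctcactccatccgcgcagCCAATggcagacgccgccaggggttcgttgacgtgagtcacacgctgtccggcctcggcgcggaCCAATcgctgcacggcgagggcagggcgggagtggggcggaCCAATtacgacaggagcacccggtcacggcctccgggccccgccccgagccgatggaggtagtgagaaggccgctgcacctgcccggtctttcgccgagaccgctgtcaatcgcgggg
CCAAT was found on either strand in 11 of the 14 promoters available for tested cholesterol genes (78.6%), against 37.7% of 27457 promoters of the same length and 38.6% of the 5895 that belong to tested genes. The sterol element core TCACNCCAC, also on both strands, was found in 0 of the 14 and in 1.13% of all promoters. A match is a description of letters, and its absence says only that these letters are not in this window.

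**Figure D3:**
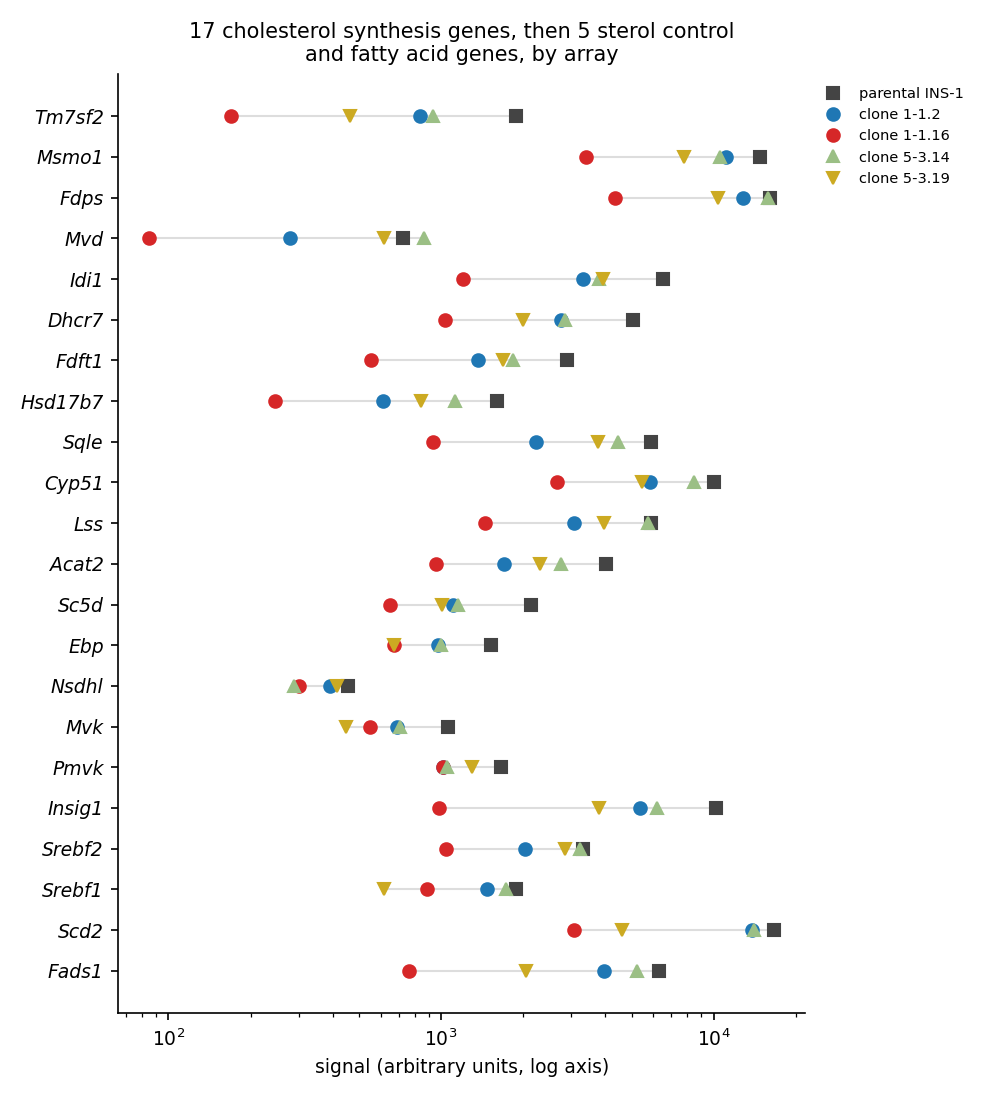
Signals of 17 cholesterol synthesis genes, ordered by their difference, and of 5 genes of sterol control and fatty acid synthesis on each of the 5 arrays, in arbitrary units on a log axis; the brightest probe set of each gene is shown. Clone 1-1.16 (red) is the lowest array for 14 of the 17 and for Insig1, and the parental line (dark squares) is the highest for most genes.

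Fatty acid genes were split between a few large differences and many small ones. Scd2, a stearoyl-CoA desaturase, read 13835 in 1-1.2 and 3083 in 1-1.16, against 16642 in the parental line, 14012 in 5-3.14 and 4616 in 5-3.19 on its brightest probe set (-2.16), and -2.63 on the second, the largest lower difference of all named probe sets; another, dim probe set gave -0.40. Fads1, the delta-5 desaturase, read 3961 in 1-1.2 and 765 in 1-1.16, against 6326 in the parental line, 5218 in 5-3.14 and 2046 in 5-3.19, a log2 difference of -2.34 (5.06-fold). In both genes 1-1.16 and 5-3.19 were low and the other arrays high.

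The synthase itself was less different. Fasn, fatty acid synthase, read 3974 in 1-1.2 and 2434 in 1-1.16 (-0.70), Fads2, the delta-6 desaturase, 1127 in 1-1.2 and 659 in 1-1.16 (-0.76), and Acss2, which makes acetyl-CoA from acetate, 3249 in 1-1.2 and 2008 in 1-1.16 (-0.69). The last of these was far below its parental signal of 8557 in both clones. Over the list 11 of 14 genes lay below 0 (78.6%, beside 44.8% of all tested genes), with a median of -0.35. Scd2 and Fads1 were the members past 2-fold, beside 1.17% of all tested genes that were 2-fold lower. The median shrank to -0.20 when only brighter probe sets were kept and to -0.17 with no filter.

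Of the genes of the ATF4 response, Trib3, Atf3 and Ddit3 were at least 2-fold higher in 1-1.16. Of the other stress lists, p53, described below, had a median of 0.45, while heat shock and endoplasmic reticulum chaperones were level or lower. The heat shock list had 5 of 11 genes above 0 (45.5%, beside 55.2% of all tested genes). Its median was -0.03, and 0.08 with quantile normalization and 0.07 with cyclic loess. The chaperones of the endoplasmic reticulum, described below, were mostly lower. Trib3, a pseudokinase induced by ATF4 and CHOP, read 356 in 1-1.2 and 1314 in 1-1.16, against 179 in the parental line, 344 in 5-3.14 and 142 in 5-3.19, a log2 difference of 1.82 (3.54-fold). Its other tested probe set gave 1.42. The level in 1-1.16 was above all other arrays on both.

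Atf3, a stress-induced transcription factor, read 251 in 1-1.2 and 878 in 1-1.16, against 184 in the parental line, 96.9 in 5-3.14 and 132 in 5-3.19 (1.72). Ddit3, which encodes CHOP, read 675 in 1-1.2 and 1896 in 1-1.16, against 496 in the parental line, 528 in 5-3.14 and 566 in 5-3.19 (1.46). In these genes too 1-1.16 stood above the other 4 arrays, which lay close to each other in Ddit3. Cebpb, a partner of both factors, read 1259 in 1-1.2 and 2200.4 in 1-1.16, against 661 in the parental line, 729 in 5-3.14 and 743 in 5-3.19 (0.79), with 1-1.2 between 1-1.16 and the rest. Ppp1r15a, which directs the removal of phosphate from eIF2alpha, read 389 in 1-1.2 and 760.2 in 1-1.16 (0.93).

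Atf4 itself differed by 0.23, with 6878 in 1-1.2 and 8096 in 1-1.16, against 5226 in the parental line, 4709 in 5-3.14 and 3699 in 5-3.19, and Asns, asparagine synthetase, by 0.10, with 5981 in 1-1.2 and 6394 in 1-1.16. Over the ATF4 list 18 of 24 genes lay above 0 (75%, beside 55.2% of all tested genes). Past 2-fold were 3 (Trib3, Atf3 and Ddit3), beside 1.48% of all tested genes that were 2-fold higher. The list's median was 0.25, and 0.15 with median centring, 0.12 with no filter and 0.16 where both clones read at least 500. In 17 of the 24, 1-1.16 was the highest of the 5 arrays, as it was in 26.1% of all tested genes. The aminoacyl-tRNA synthetases, which ATF4 also drives, had a median of 0.20 (0.10 with median centring) and 0 genes past 2-fold. Of these genes 11 of 19 lay above 0 (57.9%), near the share of 55.2% over all tested genes.

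The promoter of Trib3 is shown because that gene had the largest difference of the list; capitals mark TGATGNAA or its reverse complement, the core of the element bound by C/EBP and ATF4 pairs.
Trib3 (chr3:161275484-161275783, minus strand): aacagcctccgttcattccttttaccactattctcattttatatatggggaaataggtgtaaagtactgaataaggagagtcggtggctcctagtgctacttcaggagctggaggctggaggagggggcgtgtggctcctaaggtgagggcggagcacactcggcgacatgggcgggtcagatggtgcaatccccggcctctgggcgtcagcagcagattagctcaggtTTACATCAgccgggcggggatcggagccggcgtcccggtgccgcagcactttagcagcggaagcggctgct
TGATGNAA was found on either strand in 5 of the 21 promoters available for tested genes of the ATF4 list (Chac1, Nupr1, Pck2, Slc7a1 and Trib3), which is 23.8%, against 3.82% of all promoters and 1.78% of those of tested genes. Of these 5 genes only Trib3 was past 2-fold.

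Growth and stress responses outside that pathway gave some of the largest single differences. Gadd45b, a stress-response gene that acts on MAP kinase signalling, read 286 in 1-1.2 and 1108 in 1-1.16, against 169 in the parental line, 366 in 5-3.14 and 319.5 in 5-3.19, a log2 difference of 1.87 (3.66-fold), with 1-1.16 alone above the rest. Klf10, a transcription factor induced by TGF-beta, read 1959.7 in 1-1.2 and 7032 in 1-1.16, against 3671 in the parental line, 2109.7 in 5-3.14 and 3598 in 5-3.19 (1.83). Crem, a cAMP-responsive transcription factor with short inducible repressor forms, read 794 in 1-1.2 and 2978 in 1-1.16, against 900.1 in the parental line, 1595 in 5-3.14 and 3154 in 5-3.19 on the probe set with the largest difference, and its 3 probe sets gave 1.88, 1.85 and 0.88. On it 1-1.16 and 5-3.19 were both high.

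Jun, a subunit of AP-1, read 183 in 1-1.2 and 588 in 1-1.16 (1.57), and Myc 906 in 1-1.2 and 2438 in 1-1.16 (1.41); 1-1.16 was the highest array for both. Nr4a3, an orphan nuclear receptor induced by cAMP and calcium, ran against this direction, with 1873 in 1-1.2 and 453 in 1-1.16, against 116 in the parental line, 162 in 5-3.14 and 137 in 5-3.19 (-1.996). Its relative Nr4a2 read 217 in 1-1.2 and 516 in 1-1.16 (1.17). Over the immediate early genes 15 of 22 lay above 0 (68.2%, beside 55.2% of all tested genes). Of the 22, 4 were past 2-fold higher and 1 past 2-fold lower, beside 1.48% and 1.17% of all tested genes. The median was 0.43, and 0.30 with the filter at the 60th percentile and where both clones read at least 500.

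The p53 list was short, with 7 of 8 tested genes above 0 (87.5%, beside 55.2% of all tested genes) and a median of 0.45. Phlda3, an inhibitor of AKT, read 812 in 1-1.2 and 1656 in 1-1.16 (1.01) and was just past 2-fold, but not under the 3 other scalings. Sesn1 was the member below 0, with 288 in 1-1.2 and 141 in 1-1.16 (-0.92) against 1181 in the parental line. Ccnd1, cyclin D1, was the gene of the cell cycle list past 2-fold, with 238 in 1-1.2 and 787 in 1-1.16, against 359 in the parental line, 126 in 5-3.14 and 308 in 5-3.19 (1.64). That list had a median of -0.06 and 15 of 35 genes above 0 (42.9%, beside 55.2% of all tested genes).

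Chaperones of the endoplasmic reticulum were lower in 1-1.16, unlike the ATF4 targets. Of 24 genes 21 lay below 0 (87.5%, beside 44.8% of all tested genes), with a median of -0.44. Of the 24, 17 were at their highest of the 5 arrays in 1-1.2, beside 16.6% of all tested genes. The list's median against the parental line was 0.41 in 1-1.2 and -0.04 in 1-1.16. Hspa5, the chaperone BiP, read 20628 in 1-1.2 and 12753 in 1-1.16, against 14955 in the parental line, 10469 in 5-3.14 and 10178 in 5-3.19 (-0.69). Sdf2l1 and Ero1b, which act in folding and disulphide formation, were past 2-fold: Sdf2l1 read 9900.2 in 1-1.2 and 2938 in 1-1.16, against 4704 in the parental line, 4155 in 5-3.14 and 1157 in 5-3.19 (-1.75), and Ero1b 2472 in 1-1.2 and 808 in 1-1.16, against 2234 in the parental line, 1079 in 5-3.14 and 700.3 in 5-3.19 (-1.59). Creld2 and Manf, secreted products of the same response, gave -0.88 and -0.72.

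Genes of the respiratory chain and ATP synthase were slightly lower together. In 68 of 78 the difference was below 0 (87.2%, beside 44.8% of all tested genes), and none was past 2-fold. The median of -0.26 corresponds to less than 1.5-fold. It was -0.35 with median centring, -0.15 with quantile normalization and -0.16 with cyclic loess. Atp5f1e, a small subunit of the ATP synthase, read 16827 in 1-1.2 and 10409 in 1-1.16 (-0.69), and Ndufc1 of complex I 7789.9 in 1-1.2 and 4761 in 1-1.16 (-0.71). In 40 of the 78 genes 1-1.2 was the highest of the 5 arrays, beside 16.6% of all tested genes. Many of these genes are bright, and the brightest of the 5 bins of probe sets had a median difference of -0.09, against 0.08 in the dimmest. The ribosomal protein genes, also bright, had a median of -0.15, which turned to 0.05 with quantile normalization and 0.06 with cyclic loess.

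Among genes of redox and glucose response, Txnip had the largest difference. Txnip, a thioredoxin inhibitor that glucose induces in beta cells, read 2942 in 1-1.2 and 10608 in 1-1.16, against 13153 in the parental line, 1988 in 5-3.14 and 15373 in 5-3.19, a log2 difference of 1.84 (3.59-fold). The parental line, 1-1.16 and 5-3.19 were high, and 1-1.2 and 5-3.14 low. The antioxidant genes Hmox1 (heme oxygenase) and Srxn1 (sulfiredoxin) read 154 in 1-1.2 and 488 in 1-1.16 (1.54) and 873 in 1-1.2 and 2099 in 1-1.16 (1.24). Gsta4, a glutathione transferase, was just past 2-fold (1.03), and was not under the 3 other scalings. The list as a whole was level, with 11 of 23 above 0 (47.8%, beside 55.2% of all tested genes) and a median of -0.0032.

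The genes of a pair of binding proteins of insulin-like growth factors read higher in 1-1.16. Igfbp2 read 520.5 in 1-1.2 and 2300.5 in 1-1.16, against 2921 in the parental line, 489.6 in 5-3.14 and 3262 in 5-3.19 (2.10), with 1-1.2 and 5-3.14 low and the other 3 arrays high. Igfbp4 read 67.3 in 1-1.2 and 243 in 1-1.16, against 278 in the parental line, 245 in 5-3.14 and 230.5 in 5-3.19 (1.57), where 1-1.2 alone was low. The ligand gene Igf2 read 5015 in 1-1.2 and 3379 in 1-1.16 (-0.57). The list of insulin and IGF signalling had 11 of 16 genes above 0 (68.8%, beside 55.2% of all tested genes). Its median was 0.24, and 0.07 where both clones read at least 500. Pfkfb3, which sets the rate of glycolysis through fructose 2,6-bisphosphate, read 659 in 1-1.2 and 2061 in 1-1.16 (1.61). Its second probe set gave 1.07 and was not past 2-fold under the 3 other scalings. In the hypoxia list, which holds Pfkfb3, 12 of 18 genes lay below 0 (66.7%, beside 44.8% of all tested genes). Its 2 members past 2-fold were both higher in 1-1.16: Pfkfb3 and Bhlhe40, which read 529 in 1-1.2 and 1619 in 1-1.16 (1.58). That list had a median of -0.20, which was -0.07 where both clones read at least 500.

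Several regulators of secreted signals gave large differences. Wif1, a secreted inhibitor of Wnt ligands, read 1677 in 1-1.2 and 285 in 1-1.16, against 3505 in the parental line, 3627 in 5-3.14 and 3343 in 5-3.19, a log2 difference of -2.47 (5.54-fold). Clone 1-1.16 was the lowest array by a wide gap, while the Wnt list had 9 of 12 genes above 0 (75%, beside 55.2% of all tested genes). That list had a median of 0.13 (0.03 with median centring, 0.07 with quantile normalization and 0.08 with cyclic loess). Wif1 was its single member past 2-fold. Fst, follistatin, which binds activin, read 232 in 1-1.2 and 814 in 1-1.16, against 194 in the parental line, 110.4 in 5-3.14 and 139.7 in 5-3.19 (1.72), highest in 1-1.16. The list of activin, TGF-beta and BMP signalling had 16 of 23 genes above 0 (69.6%, beside 55.2% of all genes) and a median of 0.18, which was 0.09 with median centring, with cyclic loess and with no filter, and 0.11 with quantile normalization. Tgfb2 was high in both clones of set 1-1, with 530.5 in 1-1.2 and 1189.5 in 1-1.16, against 215 in the parental line, 107 in 5-3.14 and 35.1 in 5-3.19 (1.13). Aldh1a2, which makes retinoic acid, was high in 1-1.2 alone, with 877 in 1-1.2 and 139.7 in 1-1.16, against 229 in the parental line, 94.6 in 5-3.14 and 121 in 5-3.19, a log2 difference of -2.48 (5.57-fold).

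In the exocytosis machinery, whose median was 0.01 over 25 genes, 2 members went opposite ways. Rab3b, a GTPase of secretory vesicles, read 764 in 1-1.2 and 149 in 1-1.16, against 1196 in the parental line, 2948 in 5-3.14 and 3012 in 5-3.19, a log2 difference of -2.20 (4.61-fold), with 1-1.16 far below the rest. Unc13b, a priming factor for vesicle fusion, read 153 in 1-1.2 and 421 in 1-1.16 (1.34). Among the channels, Scn3a, a sodium channel subunit, read 1607 in 1-1.2 and 559.8 in 1-1.16, against 2823 in the parental line, 1401 in 5-3.14 and 2182 in 5-3.19 (-1.49), and Kcnip1, a potassium channel partner, 152 in 1-1.2 and 372 in 1-1.16 (1.18).

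The largest higher differences outside the lists were in genes that were low in 1-1.2. Tnfrsf9, a receptor of the TNF family known as 4-1BB, read 271 in 1-1.2 and 2824 in 1-1.16, against 590.3 in the parental line, 3016 in 5-3.14 and 2508 in 5-3.19, a log2 difference of 3.28 (9.73-fold), the largest of all probe sets. Cpne9, a copine that binds membranes with calcium, read 156 in 1-1.2 and 1368 in 1-1.16, against 4732 in the parental line, 2414 in 5-3.14 and 5059 in 5-3.19, a log2 difference of 2.97 (7.83-fold). Trpc4, a cation channel, read 167 in 1-1.2 and 853 in 1-1.16, against 932 in the parental line, 595 in 5-3.14 and 1759 in 5-3.19 (2.21), and Gcnt3, a glycosyltransferase of mucin-type chains, 120.2 in 1-1.2 and 674 in 1-1.16, against 429 in the parental line, 1686 in 5-3.14 and 1131 in 5-3.19 (2.29). In all 4 of these genes 1-1.2 was the lowest array, as it was for Ppp1r9a, which encodes the actin-binding protein neurabin, with 55.4 in 1-1.2 and 281 in 1-1.16, against 88 in the parental line, 992 in 5-3.14 and 1094 in 5-3.19 (1.97). Cxcl16, a membrane-bound chemokine, was instead high in 1-1.16 alone, with 634 in 1-1.2 and 2024 in 1-1.16, against 649.7 in the parental line, 325 in 5-3.14 and 319 in 5-3.19 (1.64).

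Lmna, which encodes lamins A and C, gave unlike answers from its probe sets. On the first, the signals were 26.9 in 1-1.2 and 409.8 in 1-1.16, against 352 in the parental line, 331 in 5-3.14 and 283 in 5-3.19 (3.15), so that 1-1.2 was close to 21.8, the 10th percentile of all signals. The other, brighter one read 1005 in 1-1.2 and 1519 in 1-1.16, against 1209 in the parental line, 1136 in 5-3.14 and 788 in 5-3.19 (0.58). Hopx, a small homeodomain protein, and Tmem178a, a membrane protein, were highest in 1-1.2. Hopx read 1561 in 1-1.2 and 294 in 1-1.16, against 322 in the parental line, 499 in 5-3.14 and 135 in 5-3.19 (-2.33), and Tmem178a 1195 in 1-1.2 and 247 in 1-1.16, against 111 in the parental line, 724 in 5-3.14 and 287 in 5-3.19 (-2.18).

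**Figure D4:**
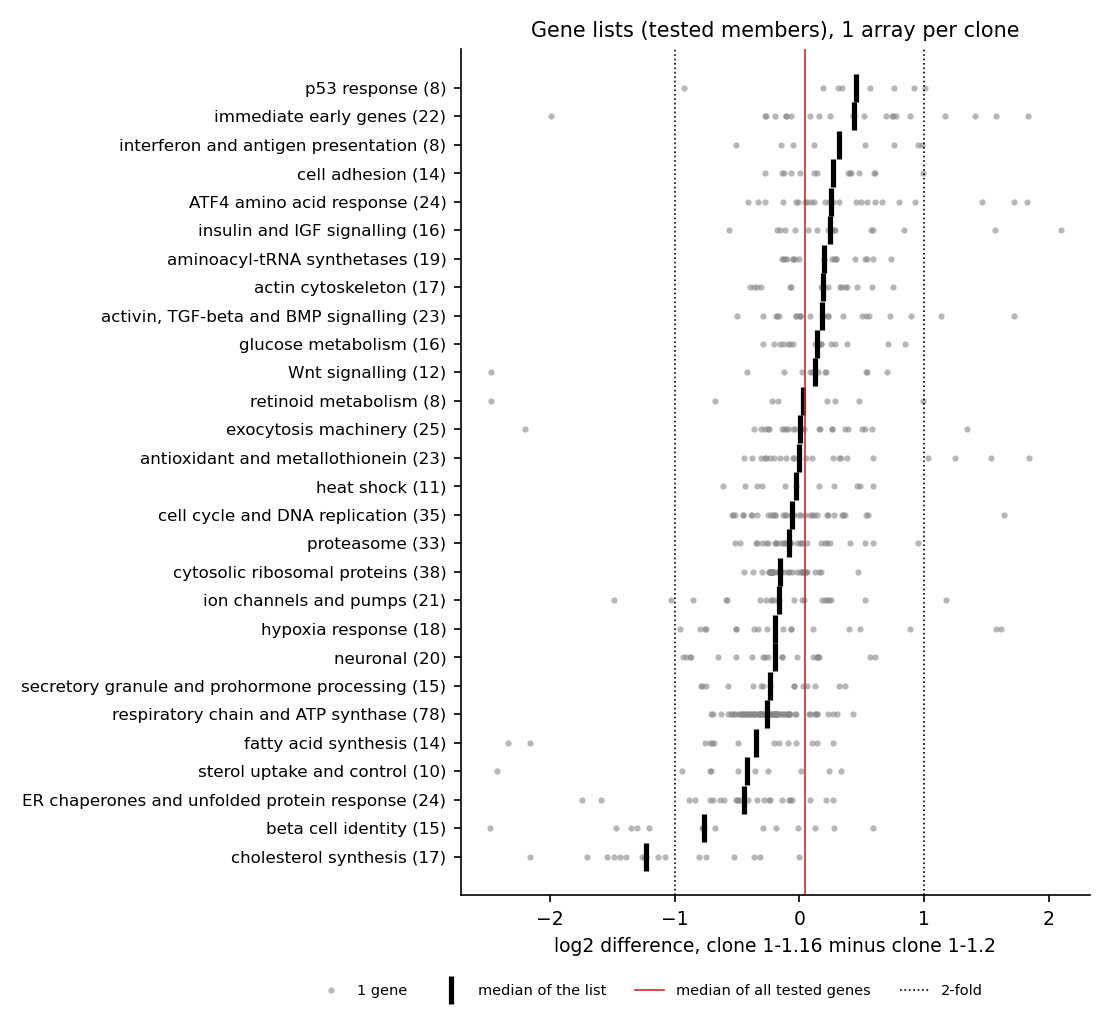
Log2 difference between clone 1-1.16 and clone 1-1.2 for the tested members of 28 gene lists, 1 grey point per gene; black bars are list medians, the red line is the median of all tested genes (0.05) and dotted lines are the 2-fold limits. Cholesterol synthesis (-1.23) and beta cell identity (-0.77) have the lowest medians, and the p53 (0.45) and immediate early (0.43) lists the highest.

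Markers of other cell types were mostly dim on both arrays. Of the 7 endothelial and leukocyte markers on the array, all were below the filter signal in both clones, as were 6 of 8 acinar and ductal and 6 of 8 fibroblast markers. The summed signal was 389 in 1-1.2 and 339 in 1-1.16 for the endothelial and leukocyte markers, 1401 and 1575 for the acinar and ductal ones, and 2425 and 1483 for the fibroblast ones. Thy1, a surface protein also made by neurons, was the brightest of these markers, with 1839.8 in 1-1.2 and 854 in 1-1.16, against 931 in the parental line, 2053 in 5-3.14 and 1108 in 5-3.19 (-1.09). For Gcg and the insulin genes, a different share of cells that make the hormone cannot be told apart from a different amount of RNA per cell.

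Either clone could be the one that stood apart. Of the 147 probe sets higher in 1-1.16, this clone lay above the other 4 arrays in 79 and 1-1.2 below them in 84, with 27 counted in both. Of the 107 lower in 1-1.16, 1-1.16 lay below the rest in 79 and 1-1.2 above it in 34, with 14 in both. Over all tested genes, 1-1.16 was the highest array in 26.1% and the lowest in 17.3%. Clone 1-1.2 was the lowest in 17.0% and the highest in 16.6%. Picking probe sets 2-fold apart by itself raises such counts. Among the 107 lower in 1-1.16, 1-1.2 was nearer to the parental line in 84, as in Insig1, Rab3b and Ins2. Among the 147 higher in 1-1.16, it was nearer in 80, and 1-1.16 was nearer in 67, as in Cpne9, Trpc4 and Txnip. Measured against the parental array, 102 were 2-fold away in 1-1.16 only, 47 in 1-1.2 only, 33 in both and 72 in neither. Over all tested probe sets, 7.63% were at least 2-fold from the parental array in 1-1.16 and 5.04% in 1-1.2. The SD of the log2 difference from that array was 0.59 in 1-1.16 and 0.51 in 1-1.2. By these measures 1-1.2 was the nearer clone over all probe sets as well. How many of all tested probe sets were nearer to it in 1-1.2 was not counted.

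Genes with lower signal in 1-1.16 also lay next to each other in 1 stretch of the genome. In the gene order of GRCr8, the median difference was taken over each of 6630 windows of 15 neighbouring tested genes. The median of all ordered genes was first subtracted. The SD of these medians was 0.13, and 51 windows lay beyond 0.5 on the log2 scale, all of them lower in 1-1.16 and all in a single run of 66 tested genes from Pgm2 to Pes1. Within it 59 of 66 genes lay below 0 with a median of -0.59 (1.51-fold), while the 15 genes before it had a median of 0.11 and the 15 after it 0.16. The limits of the run were set by these values, so its counts are a description. The medians of the run and of the genes beside it are given without the subtraction. Whole windows were merged, and the end genes Pgm2 (0.38) and Pes1 (0.49) were themselves higher in 1-1.16.

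The run holds genes of many kinds. Qdpr, which regenerates the cofactor tetrahydrobiopterin, read 8708 in 1-1.2 and 2539 in 1-1.16, against 3459.6 in the parental line, 2039.5 in 5-3.14 and 2131 in 5-3.19 (-1.77), with 1-1.2 alone high. Mxd4, a partner of MAX that opposes MYC, read 582 in 1-1.2 and 126 in 1-1.16, against 944 in the parental line, 328 in 5-3.14 and 687 in 5-3.19 (-2.03). Tcn2, the vitamin B12 carrier transcobalamin, read 3703 in 1-1.2 and 1602 in 1-1.16, against 2416 in the parental line, 1134 in 5-3.14 and 2764 in 5-3.19 (-1.198). Rbpj, the transcription factor of Notch signalling, and Ywhah, a 14-3-3 protein, were below 2-fold, at 974 in 1-1.2 and 553 in 1-1.16 and 9188 in 1-1.2 and 5749.7 in 1-1.16 (-0.79 and -0.67); these 5 genes were chosen after their values were seen. In all, 10 genes of the run were at least 2-fold lower, which is 12.3% of the 81 lower genes, and the run holds 0.950% of tested genes. Without it 147 probe sets were higher and 96 lower.

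Against the parental array the run had a median of -0.73 in 1-1.16 and -0.15 in 1-1.2, with 59 and 41 of 66 genes below 0. It was -0.74 in 5-3.14, with 62 of 66 below 0, and 0.00060 in 5-3.19, with 33. The stretch ended differently in the arrays that were low. Over the 64 tested genes after it on the same chromosome, 1-1.16 had a median of 0.28 against the parental array and 5-3.14 one of -0.51, with 16 and 56 of 64 genes below 0. Over the 109 genes before it, the medians were 0.11 and -0.13. Further probe sets of the run's genes, 9 in number, had a median of -0.68 between the clones of set 1-1, with 8 below 0. Against the parental array the same rule, counting both directions and any length, gave 13 runs in 5-3.14, 5 in 1-1.16, 5 in 5-3.19 and 3 in 1-1.2. These can include the stretch itself, and their lengths were not compared. Windows lower by more than 0.5 numbered 187 in 5-3.14, 65 in 1-1.16, 24 in 5-3.19 and 7 in 1-1.2. Windows higher by more than 0.5 numbered 279 in 5-3.14, 208 in 5-3.19 and 0 in each clone of set 1-1.

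**Figure D5:**
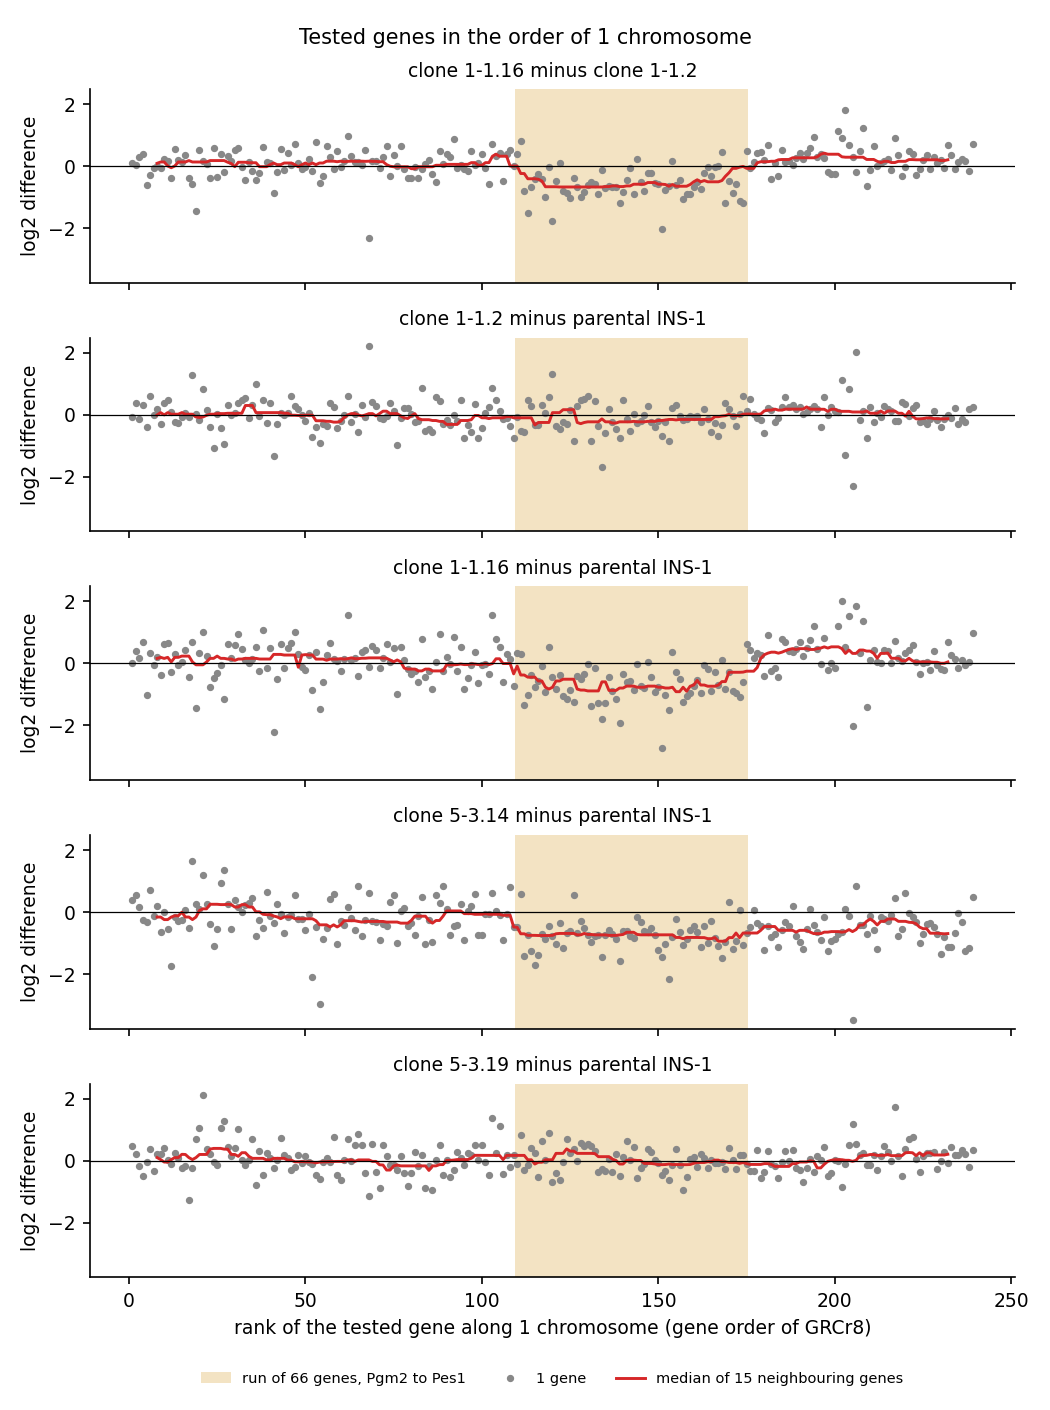
Log2 differences of 239 tested genes in the order of 1 chromosome, for 1-1.16 minus 1-1.2 (top) and for each clone minus parental INS-1; points are genes, the red line is the median of 15 neighbouring genes and the shaded band is the run of 66 genes. The line drops within the band in the top panel, in 1-1.16 and in 5-3.14, where it stays low to the right of the band, and runs near 0 in 1-1.2 and 5-3.19.

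The other pair of clones from 1 set, 5-3.19 against 5-3.14, shares no array with this comparison and was further apart, with 458 probe sets at least 2-fold higher in 5-3.19 (4.81%) and 169 lower (1.78%). Of the 147 probe sets higher in 1-1.16, 29 were also higher in 5-3.19, which is 19.7% of the former and 6.33% of the latter; among them were Txnip, Cpne9, Igfbp2, Trpc4, Hmox1, Srxn1 and Ccnd1. Of the 107 lower, 15 were also lower in 5-3.19 (14.02% and 8.88%), among them Scd2, Fads1, Hopx, Sdf2l1 and Tmem178a. Opposite directions were seen in 5 of the 147 (among them Trib3 and Tgfb2) and in 9 of the 107 (among them Mxd4 and Tcn2). Across the 9520 probe sets the correlation of the 2 differences was 0.18, as a description over probe sets that are not independent.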

How the data were processed

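Total RNA of the parental line and 4 clones was profiled on single-colour rat arrays, 1 each. The deposited table gives the authors' intensity for each probe set, linear as its values show. The software and any background correction or detection call behind it were not stated in the labels. Trimmed by 2% at either end, each array averaged between 1000.2 and 1000.3, so no scaling was added; array medians were 342 to 372. Of 15923 probe sets, 57 controls were left out. By the platform table, 12783 had 1 gene symbol, 312 several and 2771 none; 12748 matched GRCr8 by gene number. No probe set with several symbols was named.

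Differences were taken on log2(signal + 21.8), the offset being the 10th percentile of positive signals, which understates the change of dim genes. Probe sets entered with a mean log2 level over the 5 arrays at or above the 40th percentile (a signal of about 194), with Python 3.11.15 and pandas 2.3.3. Named were the 12 probe sets each way with the largest difference, the 5 each way in each clone farthest from the other 4 arrays, up to 6 members of each of 32 gene lists, 25 fixed genes and their other probe sets. Some of these are not reported here. Gene lists, rules and limits were chosen with earlier results of these data known. With 1 array per clone, only counts and medians are given. The counting was tested on simulated data. Alternatives used median centring, and quantile normalization and cyclic loess from limma 3.58.1 in R 4.3.3, other offsets, filters and fold limits. Leaving out the run of neighbouring genes, and the settings for that run, were added after the data were seen.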

Additional observations from a re-analysis of the deposited data

Results flagged for a closer look

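Gcg and Tnfrsf9 drew attention because 1-1.16 was at least 2-fold above the parental line and 1-1.2 at least 2-fold below it; with 1 array each this difference was not tested. Gcg lay 1.37 above the parental level in 1-1.16 and at -1.73 relative to it in 1-1.2, a log2 difference of 3.09 between the clones. Tnfrsf9 lay 2.22 above and at -1.07, a difference of 3.28. Among all tested probe sets with 1 gene symbol, these were the only 2 with that pattern.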

How the results depend on the processing

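The number of probe sets past 2-fold depended on the filter and the fold limit. With an offset 4 times larger, 96 were higher. Without a filter the counts were 779 higher and 495 lower, with a filter at the 60th percentile 63 and 62, and with signals of at least 500 on both arrays 57 and 49. A limit of 1.5-fold gave 696 and 477, and one of 3-fold 29 and 33. The cause is in part the construction of each setting, since fewer or more probe sets enter. The median of the respiratory chain was -0.15 with quantile normalization and -0.16 with cyclic loess. That of fatty acid synthesis was -0.17 without a filter, and -0.20 with the filter at the 60th percentile and with the limit of 500. That of sterol uptake and control was -0.71 under both of these, and that of the ATF4 list 0.12 without a filter; the cause was not tested. Of 249 recomputed values of 28 list medians, 226 stayed close and 0 turned their direction among lists with a median of at least 0.2 in size. Of 222 named probe sets, 0 turned direction among those past 2-fold. A changed offset cannot turn a direction, and median centring moved the median of all tested genes only from 0.05 to -0.05, so this count says little. With each other scaling 3 dropped below 2-fold, and 7 with the larger offset. Rising past 2-fold were 7 with median centring and 4 each with quantile normalization, cyclic loess and the smaller offset. The median of the run from Pgm2 to Pes1 was -0.57 to -0.69 over the scalings, offsets and filters. No paired analysis was possible because each group has 1 array. By brightness, the SD of the difference was 0.50 in the dimmest of 5 brightness bins and 0.36 in the brightest.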
